A study of Mus musculus with 15 samples.

Results

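The hippocampus of wild-type (WT) mice was sequenced in both batches of a study of Alzheimer's disease mutations. These 6 WT libraries, 3 from each batch, were chosen by their column names from the 15 libraries of the series. All mice were 3-month-old females, and directional libraries of polyadenylated RNA from the hippocampus were read as 150 bp pairs. WT mice were of the C57BL/6JInv strain and carried no mutant allele. Batch 1 also held APP-TKI mice, homozygous for the *App* NL-G-F knock-in, and double mutant (DM) mice, which carried that knock-in and 1 human *APOE4* knock-in allele. Batch 2 also held ApoE4 mice, with 1 human *APOE4* knock-in allele. The WT groups differ by batch and by the individual mice, and these cannot be told apart. The labels number the libraries of a group without naming animals, so the p-values below measure the spread between libraries.

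The hippocampus holds granule neurons in the dentate gyrus and pyramidal neurons in the CA fields, which release glutamate, together with inhibitory interneurons, glia and blood vessels. It borders on the choroid plexus and ependyma of the ventricle, the thalamus, the septum and the white matter. In bulk RNA fewer cells of a type and less RNA per cell cannot be told apart.

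The 6 WT libraries held between 32754717 and 38843827 counts. On the first principal component, which held 64.9% of the variance, WT batch 1 lay between -40.2 and -23.7 and WT batch 2 between 16.7 and 44.2. Pearson's r of log2 levels across genes, which are not independent replicates, was 0.986 to 0.995 for the 6 pairs within a batch and 0.960 to 0.985 for the 9 pairs between batches. WT batch 2 replicate 3 stood apart. It had 99 of 11843 well-expressed genes more than 2-fold above the mean log2 level of the other libraries of its batch. Those libraries had 0 and 9 such genes. WT batch 1 replicate 1 had the largest median absolute deviation from the mean of the other libraries of its batch, 0.1103 on the log2 scale. WT batch 2 replicate 1 had 65 genes more than 2-fold below the mean of the others in its batch. Results that rest on 1 library are given with and without it.

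The most abundant nuclear protein-coding transcripts included those of neurons and astrocytes. Levels between genes were compared as TPM, computed here from the counts and the length of all exons. Among nuclear protein-coding genes, *Cpe*, carboxypeptidase E, which trims neuropeptides, had the highest mean level at 3835 ± 198 TPM (SD, n = 6). *Calm2* and *Calm3*, which encode calmodulin, had 3777 ± 226 and 2604 ± 94.2 TPM. *Nrgn*, neurogranin, which binds calmodulin in dendrites, had 3043 ± 238 TPM, and *Camk2a*, the calmodulin-dependent kinase of excitatory synapses, had 2135 ± 184 TPM. *Ddn*, a dendritic protein, had 2162 ± 246 TPM and *Hpca*, a neuronal calcium sensor, had 1821 ± 180.4 TPM.

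Glial transcripts stood among them. *Cst3*, the protease inhibitor cystatin C, had 3001 ± 248 TPM, and *Apoe*, the main lipid carrier of the brain, had 2783 ± 300.4 TPM. The *Apoe* row combines mouse and human reads, of which WT mice carry only the mouse gene. *Sparcl1*, a secreted protein of astrocytes, had 2390 ± 211 TPM and *Glul*, their glutamine synthetase, had 1829 ± 174 TPM. Also among the 20 most abundant genes were *Eef1a1*, *Selenow*, *Rplp1*, *Aldoa*, *Tmsb4x*, *Ncdn*, *Atp1b1* and *Hsp90ab1*, with means between 1972 and 2793 TPM. The 10 most abundant genes of all kinds held 17.7% of all TPM and the 100 most abundant 30.5%, while 17845 genes exceeded 1 TPM and 67 exceeded 1000 TPM.

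**Figure D1:**
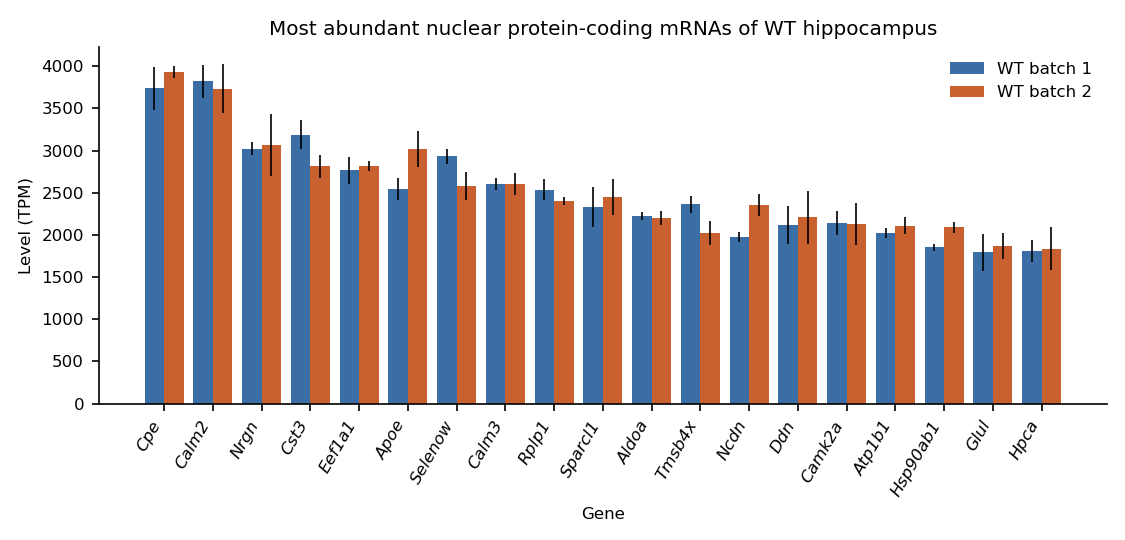
Bars give the mean level (TPM) of genes among the 20 most abundant nuclear protein-coding ones in WT batch 1 (blue) and WT batch 2 (orange), with the SD of 3 libraries as error bars. *Cpe* leads at a mean of 3835 TPM over the 6 libraries. *Cst3*, *Selenow* and *Tmsb4x* are the genes of the 20 that were called between the batches, each lower in batch 2. That share is near the 15.9% of all tested genes. Calls were made on counts scaled by the upper quartile, so they need not match the differences between TPM bars.

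Genes were called at an adjusted p under 0.1 from edgeR's quasi-likelihood test, and log2 fold changes are batch 2 minus batch 1, with their SE. Of these 20 genes 3 were called, a share near the 15.9% of all tested genes. All 3 were lower in batch 2: *Cst3* at -0.27 ± 0.072, *Selenow*, a selenoprotein, at -0.27 ± 0.068 and *Tmsb4x*, thymosin beta 4, which binds actin monomers, at -0.31 ± 0.071. *Cst3* was not called without WT batch 1 replicate 2, WT batch 1 replicate 3, WT batch 2 replicate 1 or WT batch 2 replicate 2 (adjusted p = 0.131, 0.166, 0.102 and 0.181). *Selenow* was not called without WT batch 1 replicate 2, WT batch 1 replicate 3 or WT batch 2 replicate 2 (adjusted p = 0.112, 0.132 and 0.148). *Tmsb4x* was not called without WT batch 1 replicate 3 (adjusted p = 0.104).

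Per length, 8 transcripts of the mitochondrial genome exceeded all nuclear protein-coding genes. *mt-Co1*, a subunit of cytochrome oxidase, had 41302 ± 2381 TPM, and *mt-Cytb*, *mt-Nd1*, *mt-Nd2*, *mt-Nd4*, *mt-Nd5* and both mitochondrial ribosomal RNAs were also among the 10 highest of the remaining genes. The other two were short noncoding RNAs. *Bc1*, a neuronal RNA found in dendrites, had 13019 ± 6808 TPM, and *Gm23935*, annotated as a miRNA gene with 57 exonic bases, had 29698 ± 10122 TPM. Those 57 bases are fewer than the 150 bp of a read, so the TPM of *Gm23935* is uncertain as a transcript level. The gene is among the 10 most abundant of all kinds above. It was called lower in batch 2 (-0.93, adjusted p = 0.000955).

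The defining markers of each hippocampal field were present. *Prox1* and *C1ql2* of dentate granule neurons had mean levels of 41.3 and 123 TPM. *Wfs1* and *Fibcd1* of CA1 had 117 and 114 TPM, *Amigo2* and *Rgs14* of CA2 had 34.5 and 89.5 TPM, and *Coch* and *Iyd* of CA3 had 7.32 and 12.2 TPM. *Slc17a7*, the vesicular glutamate transporter of these neurons, had 758 TPM.

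Markers of the other cell types were present at their own levels. *Gad1* and *Gad2*, which make the inhibitory transmitter GABA, had 161 and 111 TPM, and the neuropeptides *Sst* and *Cck* had 1037 and 724 TPM. Among glia, *Mbp* of myelin had 1132 TPM, *Gfap* and *Aqp4* of astrocytes had 377 and 105 TPM, and *P2ry12* and *Cx3cr1* of microglia had 52.8 and 43.2 TPM. Vascular genes were lower, with 23.3 TPM for *Cldn5* of endothelial tight junctions and 11.05 TPM for *Acta2*, the actin of smooth muscle.

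Between the batches 2565 of 16171 tested genes were called (15.9%), of which 998 were higher in WT batch 2 (6.17%) and 1567 lower (9.69%). Counts of called genes in the lists below stand beside these shares. Genes of blood vessels, ependyma, myelin and neuronal activity were among the higher, and antisense and nuclear noncoding RNAs and part of the respiratory chain among the lower. The median log2 fold change over all tested genes was -0.017, and 4164 genes reached an unadjusted p of 0.05. The total was 1570 without WT batch 2 replicate 2 and 1692 without WT batch 1 replicate 3, and 1820 to 2731 without any other library. Genes called higher numbered 635, 527, 588 and 650 without replicates 2 and 3 of batch 1 and of batch 2 in turn, and genes called lower 982 without WT batch 2 replicate 2.

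Endothelial genes were higher in batch 2. All 12 listed markers were tested and 12 were called higher, with a median log2 fold change of 1.01. Their summed level was 82.8, 93.7 and 89.9 CPM in WT batch 1 and 207, 185 and 167 CPM in WT batch 2, and every library of batch 2 lay above every library of batch 1. *Flt1*, a receptor for vascular endothelial growth factor, had 10.3, 11.9 and 12.1 CPM in WT batch 1 and 35.7, 31.5 and 23.2 CPM in WT batch 2 (1.37 ± 0.16, adjusted p = 0.00111). *Cdh5*, the cadherin of endothelial junctions, had 2.46, 2.08 and 2.61 CPM against 6.58, 7.26 and 5.74 CPM (1.43 ± 0.16, adjusted p = 0.00099). In neither gene did the groups overlap. *Pecam1*, an endothelial adhesion molecule, *Tek*, the angiopoietin receptor, and *Cldn5* had log2 fold changes of 1.24 ± 0.12, 1.32 ± 0.13 and 0.84 ± 0.15. The count was 11 without WT batch 1 replicate 3 and 12 without each of the other 5 libraries.

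Genes of the vessel wall were higher as well. Of 8 smooth muscle genes 7 were tested and 6 called higher, with a median of 1.33, and without WT batch 1 replicate 1 there were 4. *Acta2* had 1.81, 2.56 and 2.94 CPM in WT batch 1 and 7.86, 9.78 and 13.6 CPM in WT batch 2 (2.07 ± 0.24, adjusted p = 0.00135). Every library of batch 2 was above those of batch 1. *Myh11*, the heavy chain of smooth muscle myosin, differed by 2.04 ± 0.19. Of 7 pericyte genes 4 were called higher, with a median of 0.65, among them *Rgs5*, a regulator of G protein signalling, at 0.74 ± 0.14 and *Abcc9*, a subunit of potassium channels, at 0.84 ± 0.15. *Pdgfrb*, the growth factor receptor that defines pericytes, had 0.15 ± 0.087 and did not pass. Without WT batch 1 replicate 1, WT batch 1 replicate 2 or WT batch 2 replicate 2, the count of pericyte genes was 2.

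Vascular genes were also set beside the mutants of each batch, with *Vwf*, *Ptprb* and *Anxa2* picked after their values were seen. *Acta2* had means of 2.44 ± 0.571, 2.12 ± 0.759, 5.13 ± 0.931, 10.4 ± 2.91 and 7.55 ± 1.30 CPM (SD, n = 3) in WT batch 1, APP-TKI, DM, WT batch 2 and ApoE4. *Flt1* had 11.5 ± 0.979, 10.2 ± 1.58, 15.6 ± 3.09, 30.1 ± 6.37 and 28.8 ± 3.23 CPM in the same order. *Vwf*, the clotting factor that endothelium stores, had 4.05 ± 0.214, 3.44 ± 0.389, 7.44 ± 3.86, 10.6 ± 0.949 and 10.6 ± 1.35 CPM. In *Acta2*, *Flt1*, *Vwf*, *Cdh5*, *Pecam1*, *Ptprb* and *Anxa2* the mean of DM lay between those of the WT groups, above WT batch 1 and below WT batch 2. These are the genes that the study followed by quantitative PCR, picked for their rise in DM over APP-TKI in its sequencing. That choice used the DM libraries shown here, so their height within batch 1 is no separate result. *Ptprb*, an endothelial phosphatase, and *Anxa2*, a membrane-binding protein, had log2 fold changes between the WT batches of 1.33 ± 0.10 and 1.22 ± 0.23. Any comparison of DM with WT batch 1 shares these WT libraries, so the values are only given side by side.

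Red blood cell genes were higher too. Of 5 listed genes 4 were tested and 3 called higher, with summed levels of 19.7, 20.9 and 22.7 CPM in WT batch 1 and 41.3, 34.8 and 42.1 CPM in WT batch 2, without overlap. The count was 2 without WT batch 1 replicate 1 or 3 or WT batch 2 replicate 2 or 3. *Hba-a1* and *Hbb-bs*, which encode globins, differed by 1.29 ± 0.15 and 0.68 ± 0.087, and the split of reads between near-identical globin copies is uncertain. *S100a8* and *S100a9* of neutrophils were at 0 to 0.0815 CPM in the 6 WT libraries.

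Myelin genes were higher in batch 2. Of 12 oligodendrocyte genes 10 were called higher, with a median of 0.55. *Mbp*, myelin basic protein, had 1646, 2348 and 2041 CPM in WT batch 1 and 3106, 3042 and 3159 CPM in WT batch 2 (0.60 ± 0.12, adjusted p = 0.0133), and the groups did not overlap. *Mag*, a myelin adhesion molecule, and *Ermn*, a cytoskeletal protein of myelin, differed by 0.55 ± 0.12 and 0.59 ± 0.13. The summed list had 4122, 6017 and 4969 CPM in WT batch 1 and 7773, 7506 and 7678 CPM in WT batch 2, with the lowest value in WT batch 1 replicate 1. Without that library 9 genes were called with a median of 0.43. Of 7 genes of oligodendrocyte precursors 1 was called, a share near the 15.9% of all genes. It was the transcription factor *Olig1* at 0.25 ± 0.059, and *Pdgfra*, the growth factor receptor of these precursors, had -0.12 ± 0.094. In that list 2 genes were called higher without WT batch 2 replicate 3, and without WT batch 1 replicate 1, 1 was also called lower.

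Genes listed for excitatory neurons, CA1, CA3 and astrocytes were not called. By edgeR's quasi-likelihood test 0 of 8 excitatory, 8 CA1, 7 CA3 and 11 astrocyte genes passed, with 0, 2, 1 and 2 at an unadjusted p under 0.05. DESeq2 called 0, 2, 1 and 2 of them, and edgeR's robust likelihood ratio test 1, 3, 1 and 1. These calls were lower for excitatory and CA1 genes and higher for CA3 and astrocyte genes. In the quasi-likelihood fit all 8 excitatory and all 8 CA1 genes were below 0, at medians of -0.15 and -0.21. CA3 and astrocyte genes went both ways, at -0.0082 and -0.054. Without WT batch 2 replicate 3 the excitatory and CA1 medians were -0.047 and -0.095. *Slc17a7* had 1128, 1098 and 1149 CPM in WT batch 1 and 1212, 1039 and 947 CPM in WT batch 2, and the groups overlapped. Without WT batch 2 replicate 1, 3 excitatory and 3 CA1 genes were called lower, and 1 CA3 gene in each direction. A single CA3 gene was called higher without WT batch 2 replicate 2, and without WT batch 1 replicate 1, 1 astrocyte gene lower. Of 6 tested CA2 genes 1 was called in each direction. *Cacng5*, an auxiliary subunit of AMPA receptors, had 6.85, 7.36 and 7.80 CPM in WT batch 1 and 9.12, 17.97 and 18.8 CPM in WT batch 2 (1.04 ± 0.24, adjusted p = 0.0278), and the kinase gene *Map3k15* had 7.34, 6.11 and 7.07 CPM in WT batch 1 and 3.84, 3.63 and 4.46 CPM in WT batch 2 (-0.80 ± 0.14, adjusted p = 0.008). Neither gene's values overlapped between the batches. The count of higher CA2 genes was 2 without WT batch 2 replicate 2, and by DESeq2 and the robust likelihood ratio test.

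Dentate genes and interneuron genes were called in part. Over all tested genes 6.17% were called higher and 9.69% lower. Of 10 dentate genes 4 were called higher, among them *C1ql2*, a secreted synaptic protein, at 0.33 ± 0.064, and the count was 1 without WT batch 1 replicate 2 or replicate 3. Of 12 interneuron genes 4 were called lower, with a median of -0.12 over the list. *Sst*, somatostatin, had 244, 232 and 225 CPM in WT batch 1 and 183, 179 and 142 CPM in WT batch 2 (-0.49 ± 0.095, adjusted p = 0.0124), and *Cck*, cholecystokinin, had 288, 291 and 299 CPM against 228, 217 and 200.4 CPM (-0.47 ± 0.065, adjusted p = 0.00295). Neither overlapped. *Lhx6*, a transcription factor of *Sst* and *Pvalb* cells, had -0.45 ± 0.11 and was not called without WT batch 1 replicate 3 (adjusted p = 0.105). *Pvalb*, parvalbumin, had -0.31 ± 0.081 and was not called without WT batch 1 replicate 2, WT batch 1 replicate 3 or WT batch 2 replicate 2 (adjusted p = 0.137, 0.124 and 0.137). *Gad1* and *Gad2* did not pass, at -0.024 ± 0.096 and 0.065 ± 0.14. Without WT batch 1 replicate 3, 2 interneuron genes were called.

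Microglial genes were called at a share near the 15.9% of all genes. Of 12 listed genes 2 were called lower, beside 9.69% of all genes. The 2 were the purine receptor *P2ry12* at -0.32 ± 0.076 and the chemokine receptor *Cx3cr1* at -0.33 ± 0.086. *P2ry12* was not called without WT batch 1 replicate 3 or WT batch 2 replicate 2 (adjusted p = 0.112 and 0.103). *Cx3cr1* was not called without WT batch 1 replicate 2, WT batch 1 replicate 3 or WT batch 2 replicate 2 (adjusted p = 0.101, 0.139 and 0.131).

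**Figure D2:**
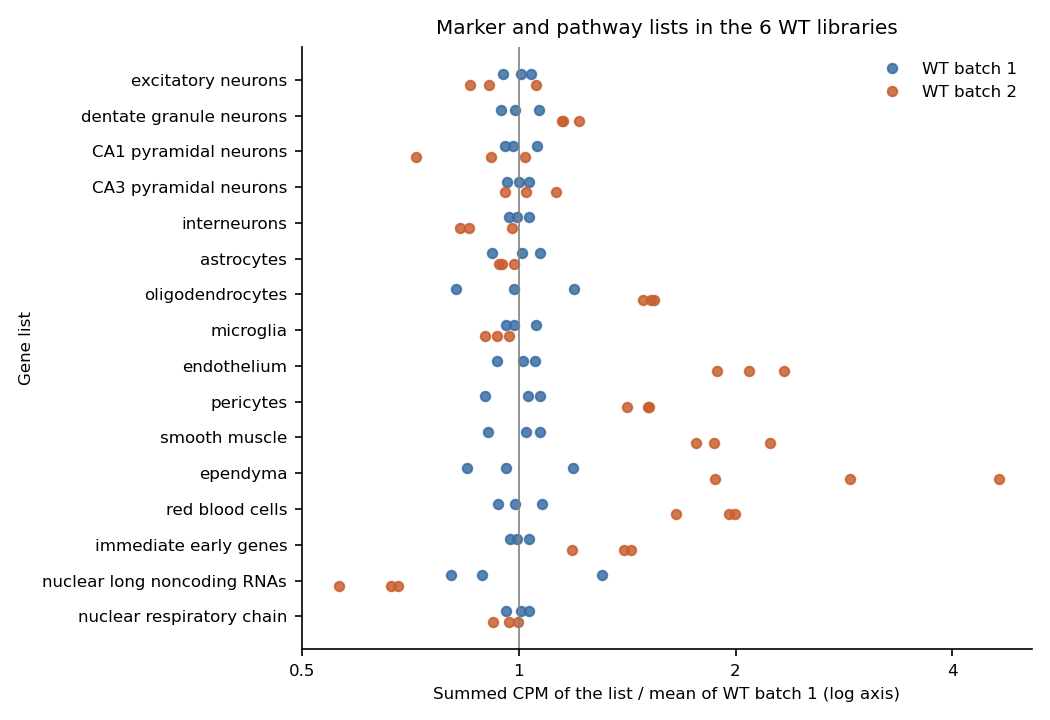
Each point is 1 WT library, and its position is the summed CPM of a gene list divided by the mean of WT batch 1, on a log axis (blue, WT batch 1; orange, WT batch 2). Endothelium, smooth muscle, ependyma, red blood cells and oligodendrocytes lie to the right in batch 2 without overlap, and nuclear long noncoding RNAs lie to the left.

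Immediate early genes, which neurons switch on soon after activity, were higher in batch 2. Of 18 listed genes 11 were called higher and 0 lower, with a median log2 fold change of 0.53. *Fos*, a subunit of the transcription factor AP-1, had 10.03, 8.03 and 6.41 CPM in WT batch 1 and 20.8, 25.2 and 21.2 CPM in WT batch 2 (1.44 ± 0.15, adjusted p = 0.000781). *Fosb*, another subunit, had 7.78, 9.22 and 7.28 CPM against 15.4, 19.9 and 14.4 CPM (1.01 ± 0.14, adjusted p = 0.003). Every library of batch 2 was above those of batch 1. *Arc*, which acts on glutamate receptors at synapses, had 109, 73.5 and 94.7 CPM against 188, 199 and 151 CPM (0.93 ± 0.14, adjusted p = 0.00474), without overlap. *Egr4*, a zinc finger factor, differed by 0.64 ± 0.096. Leaving out any 1 library gave 10 to 14 called genes.

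The 250 bases before the transcription starts of these genes were read from the RefSeq promoter table (GRCm38.p6). Windows of 4 called genes are shown so that the letters they share can be seen: *Fos* at chr12:85473640-85473889 on the plus strand, and *Fosb* at chr7:19310046-19310295, *Egr4* at chr6:85513590-85513839 and *Dusp1*, a phosphatase of MAP kinases, at chr17:26508473-26508722, all on the minus strand. Capitals mark TGACG or its reverse complement CGTCA, the core of the site bound by the activity-regulated factor CREB. Each line reads 5′ to 3′ in the direction of the gene.
Fos: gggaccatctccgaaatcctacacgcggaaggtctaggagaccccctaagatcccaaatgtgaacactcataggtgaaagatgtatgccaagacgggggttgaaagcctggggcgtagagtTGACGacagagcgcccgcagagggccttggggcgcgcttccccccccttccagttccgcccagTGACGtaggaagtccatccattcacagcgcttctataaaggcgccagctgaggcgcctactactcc
Fosb: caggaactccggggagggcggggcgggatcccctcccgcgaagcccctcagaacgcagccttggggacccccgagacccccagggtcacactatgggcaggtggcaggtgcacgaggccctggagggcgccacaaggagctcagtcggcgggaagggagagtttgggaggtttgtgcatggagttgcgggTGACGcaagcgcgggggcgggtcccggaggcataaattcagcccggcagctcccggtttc
Egr4: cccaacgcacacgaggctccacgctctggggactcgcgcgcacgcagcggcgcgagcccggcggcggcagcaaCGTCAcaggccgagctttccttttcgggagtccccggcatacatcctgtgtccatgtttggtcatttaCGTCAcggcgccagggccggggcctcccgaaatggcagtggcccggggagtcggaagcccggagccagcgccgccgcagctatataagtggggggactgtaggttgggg
Dusp1: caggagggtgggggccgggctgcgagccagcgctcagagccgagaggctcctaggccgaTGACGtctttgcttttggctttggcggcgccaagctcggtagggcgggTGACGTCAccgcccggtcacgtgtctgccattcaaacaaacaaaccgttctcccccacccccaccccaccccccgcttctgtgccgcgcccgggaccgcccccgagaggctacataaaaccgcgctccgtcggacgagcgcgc

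TGACG on either strand lay in at least 1 window of all 13 listed genes that had a window, against 19.8% of all 27025 genes. It lay in 15 of their 24 windows (62.5%), against 17.8% of all 32851 windows. Genes can have several windows, some windows of *Egr2* overlap and hold the same sites, and 3 motifs were searched. The palindrome TGACGTCA, which contains TGACG, lay in windows of *Btg2* and *Dusp1* (1.55% of all windows), and the CArG box bound by SRF lay in windows of *Egr2* (1.47% of all). A match describes letters only: *Nr4a2* and *Nr4a3* hold TGACG and had log2 fold changes of 0.067 and -0.00041, which did not pass.

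Glucocorticoid-responsive genes were partly higher. Of 16 listed 7 were called higher and 1 lower, with a median of 0.48. *Sgk1*, a kinase induced by corticosteroids, had 56.3, 64.9 and 63.4 CPM in WT batch 1 and 119.6, 141 and 182 CPM in WT batch 2 (1.24 ± 0.14, adjusted p = 0.00102), without overlap, while *Fkbp5*, a co-chaperone of the receptor, had -0.043 ± 0.068 and did not pass. The counts were 4 higher and 2 lower without WT batch 1 replicate 1, 4 higher and 0 lower without WT batch 1 replicate 2 and 5 higher and 0 lower without WT batch 2 replicate 2. The median was 0.21 without WT batch 2 replicate 3.

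Of 17 clock genes 2 were called higher and 1 lower, a share near the 15.9% of all genes, and their median difference was -0.036. *Nr1d1*, the repressor REV-ERBα, had 127, 129.7 and 137 CPM against 91.9, 88.5 and 85.7 CPM (-0.58 ± 0.058, adjusted p = 0.000621) and *Per1*, a gene of the negative limb of the clock, had 0.31 ± 0.060, while the core activators *Arntl* and *Clock* had 0.035 ± 0.077 and 0.060 ± 0.049. The count of lower clock genes was 3 without WT batch 1 replicate 1, and that of higher ones 1 without WT batch 2 replicate 2. Of 7 genes of MHC class I presentation 4 were called higher, led by *H2-D1* at 0.85 ± 0.11 and *H2-K1* at 0.56 ± 0.089, which present peptides. That count was 2 without WT batch 1 replicate 2 or 3 or WT batch 2 replicate 1 or 2. Of 10 tested interferon-induced genes 3 were called higher, among them *Ifit1*, which binds viral RNA, at 1.25 ± 0.22. The interferon count was 2 without WT batch 1 replicate 1 or 2 or WT batch 2 replicate 1. It was 4 without WT batch 1 replicate 3 or WT batch 2 replicate 3. Among all tested genes 6.17% were called higher.

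Heat shock genes were called in part. Of 9 listed 3 were called higher: *Hspb1*, a small heat shock protein, had 0.965, 1.496 and 1.55 CPM in WT batch 1 and 3.01, 2.57 and 4.96 CPM in WT batch 2 (1.37 ± 0.30, adjusted p = 0.0222), *Dnajb1*, a co-chaperone, had 0.41 ± 0.074 and *Hsph1*, a nucleotide exchange factor, had 0.21 ± 0.056. *Hsph1* was not called without WT batch 1 replicate 2, WT batch 2 replicate 1 or WT batch 2 replicate 3 (adjusted p = 0.158, 0.103 and 0.108). Without WT batch 1 replicate 1, 1 heat shock gene was called lower. Of 10 chaperone genes of the endoplasmic reticulum 1 was called higher, with 3 without WT batch 1 replicate 3 and 0 without any 1 of the other 5 libraries. Of 14 genes of cholesterol synthesis 2 were called higher, and 1 without WT batch 1 replicate 3 or WT batch 2 replicate 2. Of all tested genes 6.17% were called higher.

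Ependymal genes were higher in batch 2. Of 9 listed 8 were tested and 8 called higher, with a median of 1.96. *Foxj1*, the master factor of motile cilia, had 3.57, 4.67 and 4.81 CPM in WT batch 1 and 9.14, 12.3 and 20.97 CPM in WT batch 2 (1.68 ± 0.29, adjusted p = 0.00756), and all libraries of batch 2 were above those of batch 1. *Ccdc153*, an ependymal marker, differed by 2.58 ± 0.40. Without WT batch 2 replicate 3, the highest library, 7 were called with a median of 1.45, and without WT batch 1 replicate 1 there were 5.

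Choroid plexus genes turned on single libraries. *Ttr*, the thyroid hormone carrier that the plexus secretes, had 4.48, 29.9 and 8.07 CPM in WT batch 1 and 70.2, 25.98 and 1454 CPM in WT batch 2 (5.18 ± 1.48, adjusted p = 0.0615). Replicate 3 of batch 2 was far above the rest, and the other libraries of the groups overlapped. *Ttr* was not called without WT batch 1 replicate 1, WT batch 1 replicate 3 or WT batch 2 replicate 3 (adjusted p = 0.178, 0.183 and 0.151). Of 12 listed genes 9 were tested and 5 called higher, with a median of 2.82. Without WT batch 2 replicate 3 there were 2 with a median of 1.07, without WT batch 1 replicate 1 or 3 there were 0, without WT batch 1 replicate 2 there were 3, and without WT batch 2 replicate 1 or 2 there were 8. *Col8a2*, a collagen chain, had 0.819, 0.641 and 0.544 CPM against 2.69, 4.17 and 19.7 CPM (3.70 ± 0.76, adjusted p = 0.0169), and without replicate 3 of batch 2 it had 2.34, adjusted p = 0.00145.

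Thalamic and habenular genes were high in the same library. *Tcf7l2*, a transcription factor of thalamic neurons, had 4.65, 5.95 and 5.57 CPM in WT batch 1 and 5.14, 4.17 and 72.3 CPM in WT batch 2 (2.31 ± 0.98, adjusted p = 0.179). *Gpr151*, a receptor of habenular neurons, had 1.11, 0.946 and 0.788 CPM against 1.07, 0.721 and 25.3 CPM (3.23 ± 1.23, adjusted p = 0.14). In both genes the other 5 libraries overlapped. The summed list was 123, 149 and 129 CPM in WT batch 1 and 127, 172 and 566 CPM in WT batch 2. None of the 10 tested genes was called by edgeR's quasi-likelihood test, 5 were at an unadjusted p under 0.05, and DESeq2 and the robust likelihood ratio test each called 1. Without WT batch 2 replicate 3 the median went from 1.43 to 0.064, and 6 and 3 genes were called without its replicates 1 and 2.

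Among the 10 genes of widest spread within batches were *Ttr*, *F5*, *Clic6*, *Tcf7l2*, *Tac2*, *Zic1*, *Syt9*, *Slc17a6* and *Zic4*. Their SDs were 1.11 to 2.36 on the log2 scale, against a median of 0.0923 over 11843 genes. In these 9 genes WT batch 2 replicate 3 was the highest library. *Zic1*, a zinc finger transcription factor, had 5.24, 8.88 and 6.41 CPM in WT batch 1 and 10.3, 60.9 and 125 CPM in WT batch 2 (3.23 ± 0.73, adjusted p = 0.026), without overlap, and was not called without WT batch 1 replicate 1 or WT batch 1 replicate 3 (adjusted p = 0.103 and 0.1). Its log2 fold change was 2.35, adjusted p = 0.0363, without WT batch 2 replicate 3.

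The 10 largest rises among called genes of at least 1 CPM without overlap were *Gh*, *Prl*, *Folr1*, *F5*, *Cldn2*, *Col8a2*, *Otx2*, *Six3*, *Zic1* and *1500015O10Rik*. WT batch 2 replicate 3 was the highest library in 9 of them and WT batch 2 replicate 2 in *Six3*, a forebrain transcription factor. *F5*, *Cldn2* and *1500015O10Rik* had log2 fold changes of 4.01, 3.71 and 3.11, and of 1.62, 1.85 and 1.27 without WT batch 2 replicate 3. Each was not called without any 1 library of WT batch 1 (adjusted p = 0.11 to 0.184). *Six3* had 0.146, 0.214 and 0.217 CPM in WT batch 1 and 0.320, 3.35 and 2.10 CPM in WT batch 2 (3.27 ± 0.78, adjusted p = 0.0313) and was not called without WT batch 1 replicate 1 or WT batch 1 replicate 3 (adjusted p = 0.11 and 0.102). *Otx2*, a transcription factor of the choroid plexus, had 0.205, 1.25 and 0.435 CPM against 1.55, 2.55 and 14.9 CPM (3.32 ± 0.93, adjusted p = 0.0578), and was not called without WT batch 1 replicate 1, WT batch 1 replicate 3 or WT batch 2 replicate 3 (adjusted p = 0.17, 0.173 and 0.104). *Folr1*, a folate receptor of the plexus, had 0.0293, 0.397 and 0.245 CPM against 0.826, 0.824 and 10.6 CPM (4.15 ± 1.19, adjusted p = 0.0618), and was not called without WT batch 1 replicate 1, WT batch 1 replicate 2 or WT batch 1 replicate 3 (adjusted p = 0.176, 0.121 and 0.166).

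Calls in genes of the striatum and isocortex are set beside the 15.9% of all tested genes that were called. Of 11 striatal genes 1 was called, the dopamine receptor *Drd2* at 0.91 ± 0.25, which was not called without WT batch 1 replicate 1, WT batch 1 replicate 2, WT batch 1 replicate 3, WT batch 2 replicate 2 or WT batch 2 replicate 3 (adjusted p = 0.141, 0.14, 0.122, 0.166 and 0.134). The count of striatal genes was 2 without WT batch 2 replicate 1. *Drd1*, the other main striatal dopamine receptor, had 4.36, 5.31 and 3.89 CPM against 3.76, 6.38 and 4.25 CPM, with overlap. None of 7 isocortical genes was called by edgeR's quasi-likelihood test, 3 were at an unadjusted p under 0.05, DESeq2 called 1 and the robust likelihood ratio test 2. Without WT batch 2 replicate 1, 1 isocortical gene was called in each direction, and without WT batch 2 replicate 3, 1 was called lower. None of the 8 hypothalamic genes passed the filter on low counts, and they summed to 0.533 to 2.29 CPM. Of 4 genes of midbrain dopamine neurons 3 were tested and 2 called higher. *Ddc*, which makes dopamine from L-DOPA, differed by 0.75 ± 0.15, and *Slc18a2*, the vesicular monoamine transporter, by 0.78 ± 0.19, which was not called without WT batch 2 replicate 2 (adjusted p = 0.121). *Th*, the rate-limiting enzyme of dopamine synthesis, had 0.31 ± 0.46 and did not pass.

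Of 14 genes of meningeal fibroblasts 13 were tested and 4 called higher, with a median of 0.99. Over all tested genes 6.17% were called higher. *Col1a2*, a collagen chain, had 1.86 ± 0.39, while its partner chain *Col1a1* had 0.53 ± 0.29. The count was 1 without WT batch 1 replicate 1, 12 without WT batch 2 replicate 1 and 2 higher and 1 lower without WT batch 2 replicate 2. At an unadjusted p under 0.05 there were 10, DESeq2 called 9 higher, and the robust likelihood ratio test 10 higher and 1 lower. The fit on all 15 libraries called 11 higher, the fit without a filter 13 higher and 1 lower of 14, and the fit with the replicate block 9 higher and 1 lower. Without both libraries that stood apart the count was 3, at a median of 0.51.

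Pituitary hormones were higher in all 3 WT libraries of batch 2. *Prl*, prolactin, had 0.0878, 0.0305 and 0.0815 CPM in WT batch 1 and 4.32, 7.03 and 11.9 CPM in WT batch 2. It had 7 counts over the 3 libraries of WT batch 1 and 887 over those of WT batch 2, a depth-scaled ratio of 115 with an exact 95% interval of 55.5 to 286 that covers counting error only. *Gh*, growth hormone, had 1 and 375 counts, a ratio of 340 with an interval of 60.6 to 13453. *Pomc*, the precursor of corticotropin, differed by 1.93 ± 0.43. Of 8 listed genes 3 passed the filter. *Gh* and *Prl* did so only through the WT libraries of batch 2, so the number is no measure of the list. Without a filter 4 of 8 were called, at a median of 2.50. In ApoE4 mice of batch 2 *Prl* had 0.134 to 1.37 CPM, below every WT library of that batch. The study left genes that change in mouse brain over the estrus cycle out of its counts, with prolactin and growth hormone as examples. The labels do not give the cycle stage of these mice, and its part was not tested.

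**Figure D3:**
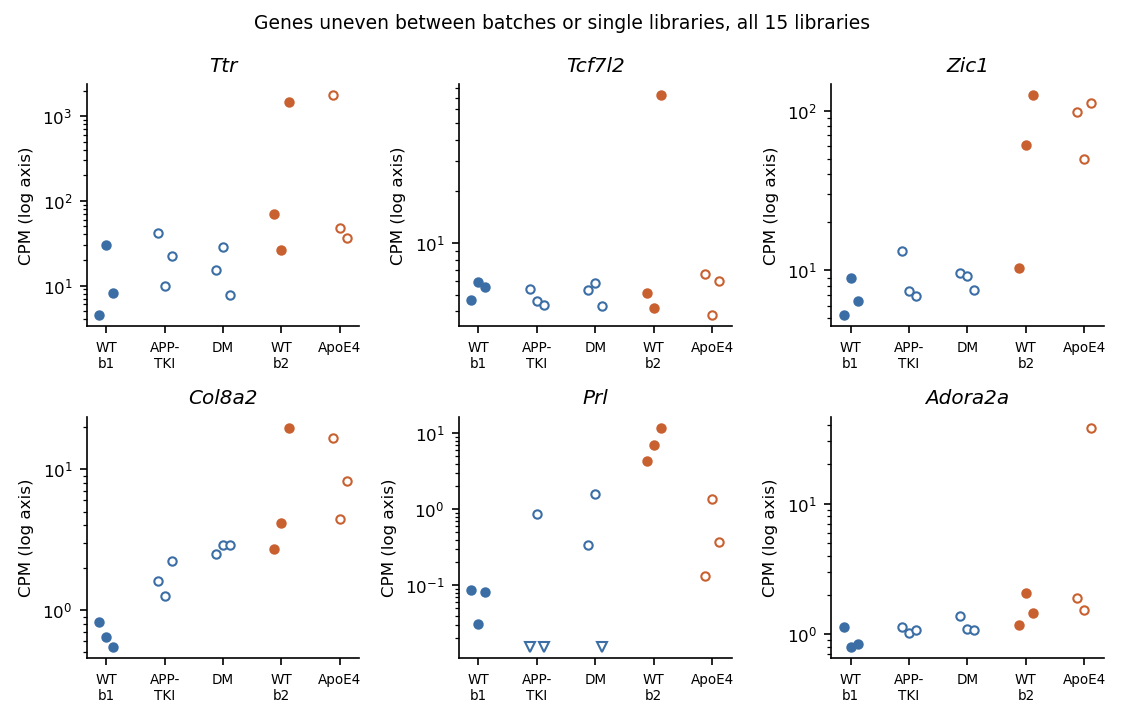
Each point is 1 library and the vertical axis is CPM on a log scale (blue, batch 1; orange, batch 2; filled, WT; open, mutants; triangles at the bottom, libraries with a count of 0). *Tcf7l2* is high in WT batch 2 replicate 3 alone, *Ttr* is highest in 1 ApoE4 library and WT batch 2 replicate 3, *Prl* is high in the 3 WT libraries of batch 2 and the striatal gene *Adora2a* is high in 1 ApoE4 library alone.

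Part of the mRNAs of energy metabolism and translation was lower in batch 2. Over all tested genes 9.69% were called lower and 6.17% higher. Of 83 nuclear genes of the respiratory chain 78 were tested, 29 were called lower and 3 higher, with a median of -0.12. *Uqcr10*, a subunit of complex III, had 107, 108 and 106 CPM in WT batch 1 and 69.4, 71.6 and 73.9 CPM in WT batch 2 (-0.60 ± 0.047, adjusted p = 0.000243), without overlap. *Ndufa5* of complex I and *Cox8a* of complex IV had -0.46 ± 0.055 and -0.38 ± 0.063. Of 76 tested ribosomal protein genes 17 were called lower and 5 higher, with a median of -0.070. *Rps26* and *Rpl38*, of the small and the large subunit, had -0.71 ± 0.066 and -0.56 ± 0.10. Without WT batch 1 replicate 2, WT batch 1 replicate 3 and WT batch 2 replicate 2 in turn, 19, 19 and 18 genes of the respiratory chain and 10, 11 and 11 ribosomal protein genes were called lower. Higher calls numbered 1 to 3 and 2 to 5 in these lists with any 1 library left out.

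Short and GC-rich genes held more of the lower calls. Protein-coding genes with no exon opposite another gene's exon were divided into 5 equal groups. By longest transcript, 6.76% of the shortest group, up to 2035 bases, were called lower, against 2.73% to 4.15% in the other groups. By GC content, 7.77% of the richest group were called lower, against 2.36% to 3.67% in the others. The part of length and GC content in the results above was not tested.

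The 13 mRNAs of the mitochondrial genome held 3.57%, 4.03% and 4.25% of counts in WT batch 1 and 3.97%, 3.80% and 4.15% in WT batch 2 (exact permutation test, two-sided, p = 1, where 0.1 is the smallest p possible). *mt-Nd6*, the one mRNA encoded on the light strand, was called lower, with 238, 258 and 244 CPM in WT batch 1 and 119.7, 119 and 130.0 CPM in WT batch 2 (-1.03 ± 0.061, adjusted p = 5.57e-05), and the groups did not overlap. *mt-Nd5*, its neighbour on the facing strand, had 0.093 ± 0.081 and did not pass. *mt-Co2* was called higher at 1.11 ± 0.25, from 12.02, 12.3 and 8.53 CPM against 14.4, 29.2 and 28.4 CPM, and it has near-identical nuclear copies, so its count is uncertain. The mitochondrial mRNAs called higher numbered 3 without WT batch 2 replicate 1.

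Noncoding RNA made up less of batch 2. Long noncoding RNAs held 2.88%, 2.32% and 2.16% of counts in WT batch 1 and 1.77%, 1.66% and 1.75% in WT batch 2 (exact permutation p = 0.1, the smallest possible), without overlap. *Malat1*, an abundant RNA of nuclear speckles, had 4095, 2834 and 2197 CPM in WT batch 1 and 1122, 832 and 1114 CPM in WT batch 2 (-1.59 ± 0.21, adjusted p = 0.00224). *Neat1*, the scaffold of paraspeckles, had 68.4, 66.9 and 64.04 CPM against 49.6, 44.6 and 55.9 CPM (-0.43 ± 0.081, adjusted p = 0.0119). Both were lower in every library of batch 2. Of 11 nuclear long noncoding RNAs 4 were called lower, the other two being *Meg3* and *Snhg14*, with a median of -0.42. The summed list had 15794, 10778 and 9760 CPM in WT batch 1 and 8248, 6814 and 8058 CPM in WT batch 2. Without WT batch 1 replicate 1, the highest library, 2 were called with a median of -0.24, and without WT batch 2 replicate 2 there were 2.

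*Rn7sk*, which holds the elongation factor P-TEFb, had 4.12, 2.84 and 1.85 CPM in WT batch 1 and 0.346, 0.541 and 0.498 CPM in WT batch 2 (-2.67 ± 0.34, adjusted p = 0.00189), and *Gm22009*, a small Cajal body RNA, had 2.14, 2.87 and 1.88 CPM against 0.373, 0.360 and 0.315 CPM (-2.72 ± 0.27, adjusted p = 0.000594). *Bc1* had 924, 1028 and 589 CPM against 248, 435 and 326 CPM (-1.35 ± 0.23, adjusted p = 0.00756). None of the 3 overlapped between the batches. *CT010467.1*, annotated as ribosomal RNA, had 103, 80.8 and 71.5 CPM against 25.3, 27.2 and 24.2 CPM, and *Lars2*, the mitochondrial leucyl-tRNA synthetase, had 492, 403 and 385 CPM against 175, 187 and 205 CPM (-1.20 ± 0.095, adjusted p = 0.000252). *CT010467.1* and *Lars2* were picked after their values were seen. The mitochondrial ribosomal RNAs *mt-Rnr1* and *mt-Rnr2* differed by -0.18 ± 0.079 and -0.22 ± 0.075 and did not pass.

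Antisense RNA was lower in batch 2. Of 750 tested antisense genes 464 (61.9%) were called lower and 3 higher, with a median log2 fold change of -0.95. Of 13911 protein-coding genes 758 (5.45%) were called lower and 975 (7.01%) higher, with a median of 0.0030. Of 417 lincRNAs 68 were called lower and 2 higher. *Gm12523*, an antisense gene opposite the sorting receptor gene *Sort1* (chr3:108283898-108284843, GRCm38), had 10.8, 9.13 and 10.5 CPM in WT batch 1 and 1.25, 1.24 and 0.787 CPM in WT batch 2 (-3.23 ± 0.19, adjusted p = 5.35e-05). It had the largest fall among called genes of at least 1 CPM without overlap. The 10 largest falls by that rule included 4 antisense genes, the others opposite *Rnf5*, *Prrc2b* and *Cacna1a*, and 7 of the 10 had exonic bases inside an exon of the other strand.

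The share of genes called lower followed the overlap with exons of the other strand. Among 10580 genes with no such overlap, 4.70% were called lower and 6.82% higher. The share called lower was 9.35% for an overlap of up to 10% of exonic bases, 21.4% for 10% to 25%, 35.7% for 25% to 50%, 53.8% for 50% to 75%, 53.1% for 75% to under 100% and 83.1% of the 77 genes that lay wholly inside such exons. Of 16 protein-coding genes that lay wholly inside them 11 were called lower. Of the 1567 genes called lower 68.2% had some overlap, against 27.7% of those called higher and 34.5% of 16162 tested genes with an annotation. A fit of only the genes without overlap, added after seeing the data, called 442 higher and 298 lower.

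Counts of an antisense gene can be read against those of its partner. *Uchl1os*, which faces the neuronal ubiquitin hydrolase gene *Uchl1* over 295 exonic bases, had 6.33%, 6.24% and 5.79% of the *Uchl1* count in WT batch 1 and 2.64%, 2.34% and 2.24% in WT batch 2. *Grin1os*, opposite the NMDA receptor gene *Grin1*, had 7.27%, 6.52% and 6.41% against 2.49%, 2.72% and 2.54%. Both shares were lower in every library of batch 2. The partners *Uchl1* and *Grin1* had log2 fold changes of -0.13 ± 0.056 and -0.12 ± 0.064 and did not pass. Over 645 pairs of an antisense gene and a protein-coding partner, the median share was 5.04%, 4.34% and 4.18% in WT batch 1 and 2.07%, 2.07% and 1.99% in WT batch 2. In 509 of the 645 pairs every WT library of batch 2 lay below every WT library of batch 1, and in 13 above. No like share over all tested genes is given here for the WT libraries alone. The 629 distinct partners had a median log2 fold change of -0.0056, with 43 called higher and 34 lower. The libraries are described as directional, while no source used here states whether reads were counted by strand. The 77 genes wholly inside exons of the other strand still passed the filter on low counts. How reads in bases shared by an antisense gene and its partner were assigned was not tested.

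**Figure D4:**
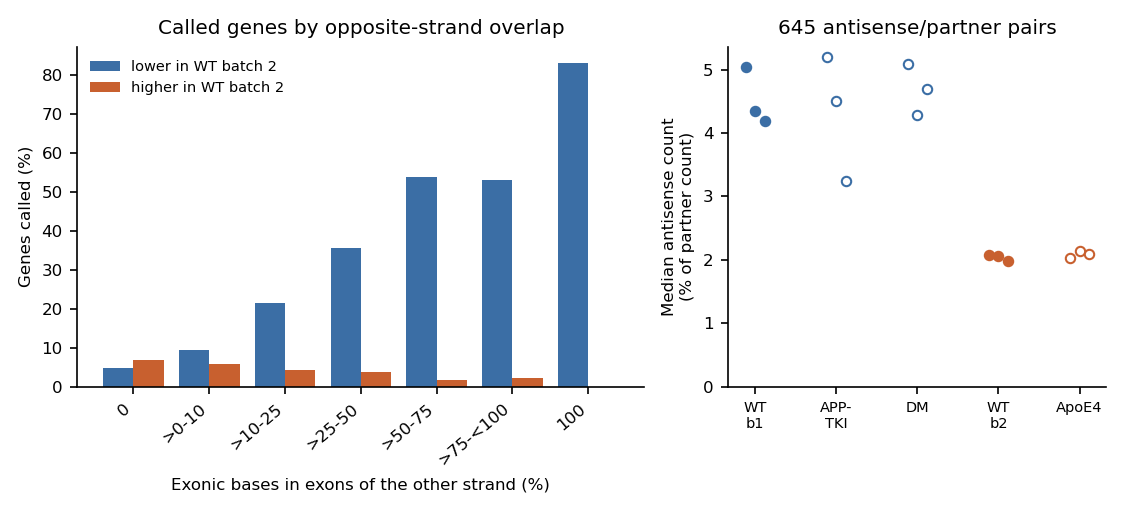
Left, bars give the percent of tested genes called lower (blue) and higher (orange) in WT batch 2, by the percent of exonic bases that lie in exons of the other strand: the share called lower goes from 4.70% to 83.1%. Right, each point is 1 library (filled, WT; open, mutants) and shows the median antisense count as a percent of the partner's count over 645 pairs, with the 9 libraries of batch 1 above all 6 of batch 2.

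The mutants gave a contrast of the batches in libraries that the WT comparison did not use. ApoE4 minus the mean of APP-TKI and DM called 2098 genes higher (13%) and 3190 lower (19.7%) of 16171. Genotype and batch cannot be told apart in it, and TMM scaling changed its split to 2753 higher and 2573 lower. Without ApoE4 replicate 3 it called 3287 in all. Of the 2565 genes called between the WT batches 2069 were called in the same direction between the mutants, which is 80.7% of the first list and 39.1% of the second, with 732 higher and 1337 lower. All 6 libraries of batch 2 lay above all 9 of batch 1 in 735 of 16171 genes (4.55%) and below them in 1134 (7.01%), and 424 and 993 of these were called in that direction between the WT batches.

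The batch 2 minus batch 1 difference was also taken in the mutants, and the WT and mutant differences were not tested against each other list by list. Of 750 antisense genes 537 were called lower, with a median of -0.98, and the median antisense share was 3.23% to 5.19% in APP-TKI and DM and 2.03% to 2.13% in ApoE4. Endothelial genes were called higher in 11 of 12, at a median of 0.78, oligodendrocyte genes in 10 of 12, at 0.53, and ependymal genes in 8 of 8, at 1.58. Immediate early genes were called higher in 10 of 18, at 0.37, with *Fos* at 11.4 to 14.8 CPM in ApoE4. Striatal genes were called higher in 11 of 11 in the mutants, at 1.82, and in 1 of 11 between the WT batches. The mutant count rested on ApoE4 replicate 3: without that library 5 were called, at a median of 0.13, and *Adora2a*, a striatal adenosine receptor, was at 1.52 to 38.2 CPM in ApoE4. Without the other libraries in turn 9 to 11 were called. Red blood cell genes were called in 3 of 4 between the WT batches, at a median of 0.80. In the mutants edgeR's quasi-likelihood test called 0 of them, at 0.50, with 0 at an unadjusted p under 0.05, 1 called by DESeq2 and 3 called without APP-TKI replicate 2. MHC class I genes were called higher in 1 of 7 in the mutants, at 0.11, against 4 in WT. Without ApoE4 replicate 2, and by DESeq2, 2 of them were called in the mutants, and without ApoE4 replicate 1 their median was -0.068. Of the meningeal genes 1 was called higher and 1 lower in the mutants, at a median of 0.021. The lower call was lost by DESeq2 and without any 1 of APP-TKI replicates 1 and 3, ApoE4 replicates 1 and 3 and DM replicates 2 and 3. Microglial genes were called lower in 9 of 12 in the mutants, at -0.26, and in 2 between the WT batches, at -0.11. *Sst* and *Malat1* had -0.47 and -1.55 in the mutants.

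**Figure D5:**
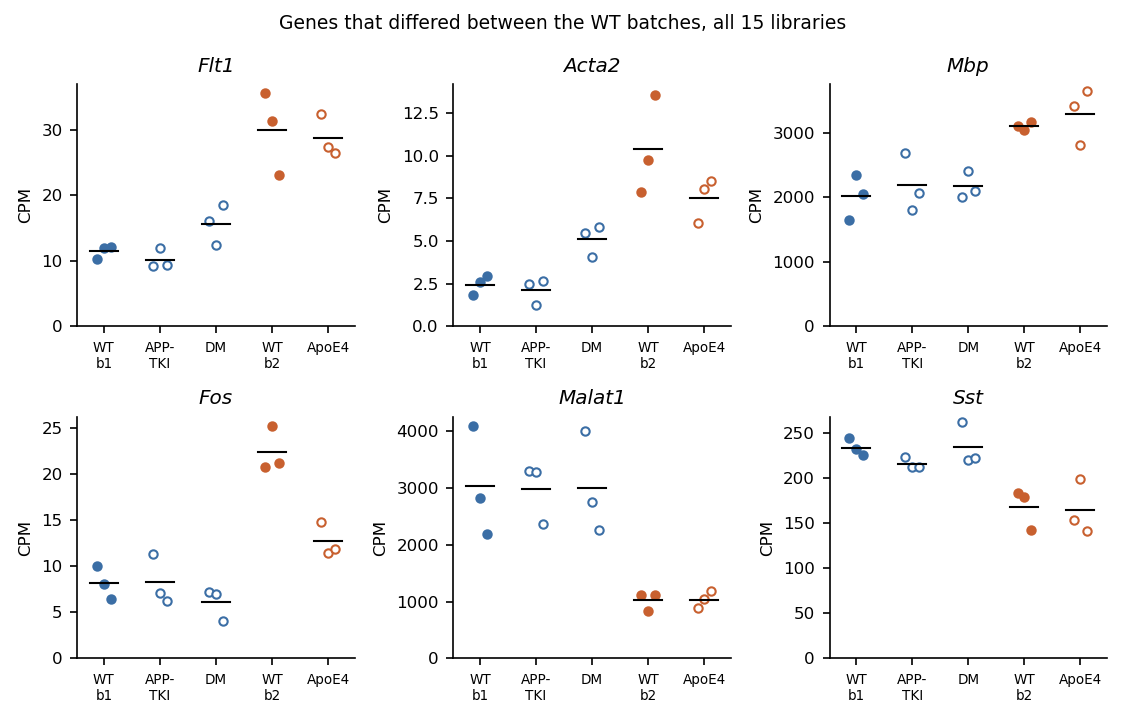
Each point is 1 library, the vertical axis is CPM from 0 and the line is the mean of 3 libraries (blue, batch 1; orange, batch 2; filled, WT; open, mutants). For *Flt1*, *Acta2*, *Mbp*, *Fos*, *Malat1* and *Sst* the 3 WT libraries of batch 1 do not overlap with the 3 of batch 2.

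A total of 5 genes, *Nudt3*, *Trim36*, *Insig1*, *Capn11* and *Trabd2b*, were called in opposite directions in the WT and mutant contrasts and are named after their values were seen. *Insig1*, which retains the sterol sensor SCAP, had 0.31 ± 0.076 between the WT batches and -0.23 between the mutants, and between the WT batches it was not called without WT batch 1 replicate 3 or WT batch 2 replicate 2 (adjusted p = 0.113 and 0.112). A fit of all 15 libraries that tested the difference of the contrasts with edgeR's quasi-likelihood test called 0 of 16171 genes, with 950 at an unadjusted p under 0.05, and no other tool was run for it. *Mid1*, an X-linked ubiquitin ligase picked after its values were seen, had 18.2, 21.7 and 11.4 CPM in WT batch 1 and 9.81, 9.11 and 17.7 CPM in WT batch 2 (-0.50 ± 0.29, adjusted p = 0.314), with overlap, and 4.39 to 5.21 CPM in APP-TKI, 3.31 to 3.98 CPM in DM and 8.27 to 15.1 CPM in ApoE4. It was called without WT batch 2 replicate 3 (-0.87, adjusted p = 0.0491).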

How the data were processed

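The deposited values were raw counts of reads per gene from hippocampal RNA. The authors trimmed reads with Trimmomatic 0.39, aligned them with STAR 2.7.1a to the GENCODE release 24 mouse genome supplemented with human *APOE*, and counted them with HTSeq 0.11.2, and used R 4.0.2 and edgeR, per their methods and processing notes. Human and mouse *APOE* counts were combined in 1 row. No source used here states how strand was treated in counting.

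Of 55471 gene IDs 55230 matched GENCODE release 21 of the same assembly (GRCm38), which gave exons, biotypes and opposite-strand overlap. The filter kept 16171 genes that exceeded 1 CPM in 3 or more of 15 libraries. Counts were scaled by the upper quartile, as in the study, and the WT libraries were tested with edgeR 4.0.16 in R 4.3.3 (quasi-likelihood test, two-sided, Benjamini-Hochberg adjusted p under 0.1). The 9 libraries that are not WT were fitted alike. SE is the absolute log2 fold change divided by the square root of F. CPM and TPM were computed here. Shares of counts were compared by exact permutation tests. Scripts were tested on simulated data. Totals of 32754717 to 38843827 counts limit precision mainly near 1 CPM.

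The libraries, lists and genes were chosen with earlier results of these data known. Named genes were the 10 largest rises and 10 largest falls among called genes of at least 1 CPM without overlap, the first 2 members and up to 4 of smallest p of each list, the 20 nuclear protein-coding and 10 other genes of highest TPM, and the 10 of widest spread within batches at 5 CPM or more. Some of these genes are not reported here. Others were chosen after their values were seen. DESeq2 1.42.0, other scalings and filters, a replicate block and left-out libraries were alternatives. Python 3.11.15 and matplotlib 3.10.9 were also used.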

Additional observations from a re-analysis of the deposited data

How the results depend on the processing

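The 2565 genes called between the WT batches (998 higher and 1567 lower in batch 2) became 3961 without a filter (1572 and 2389), 1667 at an adjusted p under 0.05 (579 higher) and 740 among genes without opposite-strand exons (442 and 298, chosen after seeing the data). Leaving out 1 library gave 1570 to 2731 genes, 527 to 1217 higher and 982 to 1514 lower. Without both libraries that stood apart, also added after seeing the data, there were 2299. The other scalings, filters, tests and the fit of all 15 libraries gave 2319 to 3372. The mutant contrast, 5288 genes, had 3287 to 5635 with 1 library left out (1253 to 2145 higher and 2034 to 3490 lower). The difference in the share of mitochondrial mRNAs, 0.0257 percentage points, ranged from -0.164 to 0.176 with 1 library left out and was negative (-0.164 and -0.0615) without WT batch 1 replicate 1 or WT batch 2 replicate 3, and *mt-Nd5* had -0.030 without both. The cause of these shifts was not tested.

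The replicate numbers were not shown to pair the libraries: same-numbered WT libraries had deviations correlated at 0.284, 0.0888 and 0.0200, and replicate 1 correlated best with its own number while replicates 2 and 3 of batch 1 did not. A fit with the replicate block called 3266 genes, 1285 higher and 1981 lower, and 4908 in the mutants. Of 2517 recalculated fold changes of 135 named genes 2320 kept their direction and side of the threshold, 191 lost and 5 gained a call and 1 changed sign.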
